A study of Homo sapiens with 6 samples.

Results

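The S100 genes described here are 10 genes of the S100 calcium-binding protein family, taken by symbol as family members, with earlier results of these data known: *S100B*, *S100A1*, *S100A2*, *S100A3*, *S100A4*, *S100A6*, *S100A10*, *S100A11*, *S100A13* and *S100A16*. They are 10 of 24526 genes in the table, and all 10 passed edgeR's filter on low counts, which 16297 genes passed. Their transcripts were counted in 6 libraries of WM266.4 cells, an established human melanoma cell line. Control cultures (neg.si) were transfected with a Silencer Select negative control siRNA, a short double-stranded RNA with no intended target, and RIPK4.si cultures with a Silencer Select siRNA against *RIPK4*, a receptor-interacting serine/threonine kinase. Each group had 3 cultures, named as biological replicates, and RNA was taken 48 h after transfection. All cultures came from 1 cell line, and a single siRNA identifier was given for *RIPK4*, so effects of the siRNA sequence itself and of the loss of RIPK4 cannot be told apart.

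S100 proteins are small, mostly dimeric proteins with EF-hand loops, and most of them are calcium sensors. On binding calcium most members, though not all, expose a surface that docks onto target proteins. Targets of the family include annexins, p53 and non-muscle myosin, and some members also act outside the cell on receptors such as RAGE. Most of the family lies in a cluster on the long arm of chromosome 1, whereas *S100B* lies on chromosome 21 and is the member used by pathologists as a marker of melanocytic and glial tumours.

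The coordinates in the files were those of GRCh38, and for all 10 S100 genes they were the same as in GENCODE release 44. *S100B* lies at chr21:46598604-46605208 on the minus strand. *S100A10*, at chr1:151982915-151993859, and *S100A11*, at chr1:152032506-152047907, lie apart from the other members of chromosome 1. The remaining members follow as *S100A6* (chr1:153534599-153536244), *S100A4* (chr1:153543613-153550136), *S100A3* (chr1:153547329-153549258), *S100A2* (chr1:153561108-153567890), *S100A16* (chr1:153606886-153613145), *S100A13* (chr1:153618787-153631360) and *S100A1* (chr1:153627926-153632039). *S100A1* is on the plus strand and the other 9 are on the minus strand. *S100A1* and *S100A13* share 235 exon bases on opposite strands. The read pairs were counted without regard to strand, so reads from the shared bases cannot be told apart. *S100A13* shares 33.53% of its exon bases with other genes, most of it with a gene on the same strand, and *S100A11* has processed pseudogene copies, so counts of both are uncertain.

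RefSeq promoter entries (GRCh38.p14) were found for 9 of the 10 members, *S100B* having none in the table used, with 13 start sites among them. The 250 bases before each start were searched on both strands for the GC box with the letters GGGCGG, the TATA box with TATAAA, the AP-1 site with TGANTCA, the E-box with CACGTG, the M-box core with CATGTG, the SOX site with ACAAAG, the ETS site with CCGGAAG and the NF-kB consensus. Matches of the GC box may overlap each other. The 4 windows below are shown because they set beside each other *S100A10*, whose level was lower in every RIPK4.si library than in any neg.si library, its neighbour *S100A11*, whose levels overlapped, *S100A2*, which was also lower without overlap, and *S100A4*, the member with a TATA box near its only listed start. Each is given 5′ to 3′ on the minus strand, and capitals mark a motif match.

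S100A10, chr1:151993860-151994109: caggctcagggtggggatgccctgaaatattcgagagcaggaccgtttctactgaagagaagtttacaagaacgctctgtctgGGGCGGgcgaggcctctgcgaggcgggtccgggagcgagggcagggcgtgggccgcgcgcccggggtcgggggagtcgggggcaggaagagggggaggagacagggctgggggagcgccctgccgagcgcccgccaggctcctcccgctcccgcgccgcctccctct

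S100A11, chr1:152037005-152037254: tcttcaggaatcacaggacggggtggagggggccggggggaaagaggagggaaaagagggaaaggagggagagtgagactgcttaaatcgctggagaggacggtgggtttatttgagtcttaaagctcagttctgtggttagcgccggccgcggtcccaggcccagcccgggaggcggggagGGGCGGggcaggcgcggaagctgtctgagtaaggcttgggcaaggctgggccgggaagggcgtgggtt

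S100A2, chr1:153565845-153566094: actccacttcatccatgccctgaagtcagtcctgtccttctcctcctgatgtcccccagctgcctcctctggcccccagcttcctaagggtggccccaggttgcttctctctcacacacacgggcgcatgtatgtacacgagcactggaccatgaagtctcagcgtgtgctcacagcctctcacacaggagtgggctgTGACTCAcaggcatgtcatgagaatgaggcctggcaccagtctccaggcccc

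S100A4, chr1:153545807-153546056: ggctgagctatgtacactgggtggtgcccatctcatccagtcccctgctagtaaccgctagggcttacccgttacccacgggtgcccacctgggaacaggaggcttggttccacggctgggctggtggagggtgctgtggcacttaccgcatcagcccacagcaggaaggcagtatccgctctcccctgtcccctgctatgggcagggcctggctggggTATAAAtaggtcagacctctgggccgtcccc

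The capitals are a GC box in *S100A10* (161 bases before the start) and in *S100A11* (62 bases before), an AP-1 site in *S100A2* (45 bases before) and a TATA box in *S100A4* (25 bases before). A GC box was found in 6 of the 13 windows of the members, each in a different gene, and in 42.6% of the 35116 windows of all genes. A TATA box was found in 2 of the 13 windows and 10.7% of all windows, an AP-1 site in 2 and 6.57%, and an M-box core in 2 and 9.42%. The E-box (6.35% of all windows), the SOX site (13.7%), the ETS site (8.52%) and the NF-kB consensus (9.96%) were found in 0 of the 13. *S100A10* and *S100A11* both held a GC box. Whether any motif goes with a difference between the groups was not tested. A match describes the letters of a window and not a bound site.

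Silencing was visible in the targeted gene. *RIPK4* was at 85.8, 76.5 and 54.7 CPM in neg.si and at 19.9, 16.7 and 21.5 CPM in RIPK4.si, where CPM (counts-per-million) is the count divided by the normalized library size. The groups did not overlap, and RIPK4.si kept 26.8% of the neg.si level (log2 fold change -1.90, SE 0.203, adjusted p = 0.0102). All adjusted p-values are from the quasi-likelihood test of edgeR, adjusted by the Benjamini-Hochberg method over all genes tested, unless another tool is named, and a gene is called at an adjusted p under 0.05. With neg.si replicate 2 left out the adjusted p of *RIPK4* was 0.106, and with replicate 1, 2 or 3 of RIPK4.si left out it was 0.0940, 0.0622 or 0.0725, so it was no longer called.

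Counts on genes summed to between 28464057 and 31688095 per library, so depth was nearly equal. The libraries differed in how level followed GC content: the rank correlation across genes of a library's deviation with GC content was 0.555 in neg.si replicate 1 and -0.547 in neg.si replicate 3, and lay between -0.0788 and 0.165 in the other 4 libraries. The S100 genes were GC-rich, with 9 of the 10 above the median of the genes tested (47.87%) and a range from 47.54% to 60.18%. The melanocyte genes of the lineage list were expressed, with *SOX10* at 290 to 428 CPM and *MITF* at 291 to 396 CPM over the 6 libraries. Others of that list were lower, with *TYRP1* at 26.4 to 42.4 CPM and *MLANA* at 11.1 to 14.6 CPM. The summed level of the keratinocyte list, with 6 of 7 genes in the table, was 10.83 to 12.59 CPM in neg.si and 12.79 to 16.92 CPM in RIPK4.si. Most of it was *KRT10*, at 10.2 to 16.1 CPM over the libraries and higher in every RIPK4.si library (log2 fold change 0.41, adjusted p = 0.438 by edgeR). *KRT5* and *KRT14* had 0 counts in 4 libraries, and their 5 to 19 counts were in the libraries numbered 1 of both groups. The leukocyte list, with 5 of 5 genes, summed to 2.00 to 2.62 CPM in neg.si and 1.81 to 2.28 CPM in RIPK4.si, with *PTPRC* at 2 to 13 counts. The fibroblast list, with 6 of 6 genes, summed to 637 to 820 CPM in neg.si and 516 to 1044 CPM in RIPK4.si, nearly all of it *COL1A2*, while *COL1A1* had 0 to 9 counts. The part of other cell types in the S100 values was not tested.

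The S100 transcripts spanned a wide range of abundance. On the scale of CPM per kilobase of exon, which allows genes of different length to be compared, *S100B* had the highest level in neg.si at 389.5 ± 84.5 (SD, n = 3). *S100A6*, a partner of calcyclin-binding protein, followed at 279.1 ± 154, *S100A10*, which forms a heterotetramer with annexin A2, at 193.8 ± 19.0, and *S100A11*, a partner of annexin A1, at 120.1 ± 36.1. These 4 genes formed an abundant tier. The next, *S100A16*, was at 18.7 ± 3.06, and its range did not overlap that of *S100A11*. *S100A4*, which binds non-muscle myosin, was at 14.2 ± 2.55, *S100A3* at 12.9 ± 4.49, *S100A13*, known for non-classical export of FGF1, at 9.52 ± 2.81 and *S100A1*, a calcium sensor best known from heart muscle, at 8.46 ± 1.29. *S100A2*, a p53-binding member typical of keratinocytes, was lowest at 1.06 ± 0.0964. Neighbours in this order had overlapping ranges except *S100A10* and *S100A11*, *S100A11* and *S100A16*, and *S100A1* and *S100A2*. The order was the same in RIPK4.si. With the longest annotated transcript as length *S100A13* and *S100A1* changed places, and with only exon bases not shared with another gene *S100A13* stood 6th. The levels themselves depended on the length used. With the longest transcript the neg.si mean was 634.4 for *S100B*, 292.2 for *S100A10* and 1.68 for *S100A2*, and with unshared bases that of *S100A13* was 14.3.

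**Figure D1:**
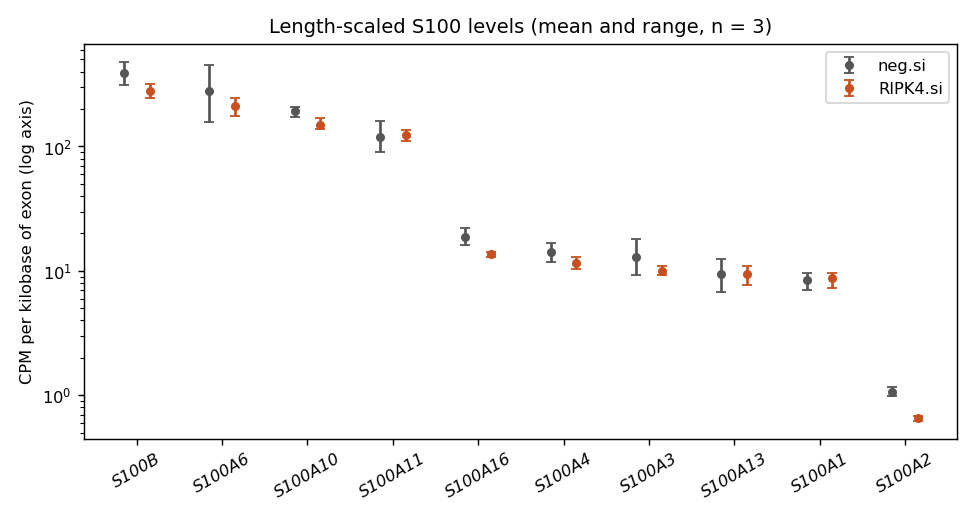
Length-scaled level (CPM per kilobase of exon, log axis) of the 10 S100 genes, with the mean as a point and the lowest and highest of 3 libraries as bars, for neg.si and RIPK4.si. *S100B*, *S100A6*, *S100A10* and *S100A11* sit above 89 in every library, *S100A16* to *S100A1* between 6.75 and 22.2, and *S100A2* near 1.

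Of the summed length-scaled level of the 10 genes, *S100B* made up 37.7% ± 2.57 in neg.si and 34.2% ± 1.95 in RIPK4.si (SD, n = 3 each). The share of *S100A11* was 11.6%, 11.2% and 11.5% in the neg.si libraries and 15.99%, 12.76% and 16.52% in the RIPK4.si libraries, without overlap. That of *S100A13* was likewise 0.899%, 0.960% and 0.864% against 1.147%, 1.265% and 1.056%. The share of *S100A6* was 25.4% ± 6.72 against 25.8% ± 2.58. Shares within a library are tied to each other, so a share can be higher without a higher level. The mean CPM of *S100A11* was 77.9 in neg.si and 79.6 in RIPK4.si, and that of *S100A13* was 21.1 and 21.0. The shares were not tested. In RNA from whole cultures, fewer cells with a transcript and less of it in each cell cannot be told apart.

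Between RIPK4.si and neg.si, 0 of the 10 S100 genes were called, where 0.767% of all genes tested were. With DESeq2 0 were called against a background of 2.78%, and with the GC trend of each library removed 0 against 3.27%. At an unadjusted p under 0.05, edgeR listed 4 of the 10 members, *S100A16*, *S100A2*, *S100B* and *S100A10*, each lower in RIPK4.si, where 6.0% of all genes had such a p with RIPK4.si lower. DESeq2 listed 2 at that level, and 1790 of all 24526 genes. The fitted fold change was below 0 for 8 of 10 members, against 53.4% of all genes, and for 7 of 10 when libraries were scaled by the size factors of DESeq2 or by upper quartiles, where that of *S100A13* moved from -0.00 to 0.00. The median log2 fold change of the members was -0.37 and that of all genes tested -0.02. The members' median was -0.08 with neg.si replicate 1 left out, where that of all genes was -0.00, and it was between -0.49 and -0.29 under the other 13 alternatives. In 3 of 10 members, *S100A10*, *S100A16* and *S100A2*, every RIPK4.si library lay below every neg.si library, where 9.40% of all genes tested did. The count at an unadjusted p under 0.05 changed with the libraries fitted. Leaving out replicate 1 or 2 of neg.si, or replicate 1 or 3 of RIPK4.si, brought it to 0. With replicate 2 of RIPK4.si left out it was 3, where 1472 of all genes had such a p, and with replicate 3 of neg.si left out it was 6, where 2380 had. The fitted values of the 4 genes stayed below 0 in all 6 of these fits: with neg.si replicate 2 left out the log2 fold change was -0.48 for *S100B*, -0.47 for *S100A16*, -0.72 for *S100A2* and -0.33 for *S100A10*, and with neg.si replicate 1 left out -0.29, -0.29, -0.59 and -0.31. Over all genes, 1768 had such a p with 6 libraries. That count rose to 2268 without neg.si replicate 1, while leaving out neg.si replicate 2, RIPK4.si replicate 1 or RIPK4.si replicate 3 gave 1153, 1426 or 1086.

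One library stood high across the family. The highest of the 6 values was in neg.si replicate 1 for 9 of 10 members, all but *S100A1*, where 23.0% of all genes tested had their highest value there. The summed CPM of the 10 genes was 1735, 1291 and 1033 in neg.si and 1059, 1114 and 924.3 in RIPK4.si, so that neg.si replicate 3 lay within the RIPK4.si range. With each library's GC trend removed, 7 of 10 members were highest in neg.si replicate 1, against 17.9% of all genes. Then 5 of 10, *S100B*, *S100A4*, *S100A16*, *S100A2* and *S100A3*, had groups without overlap and RIPK4.si lower, against 11.6% of all genes, and the groups of *S100A10* overlapped. The part of GC content in the differences between libraries was not tested.

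**Figure D2:**
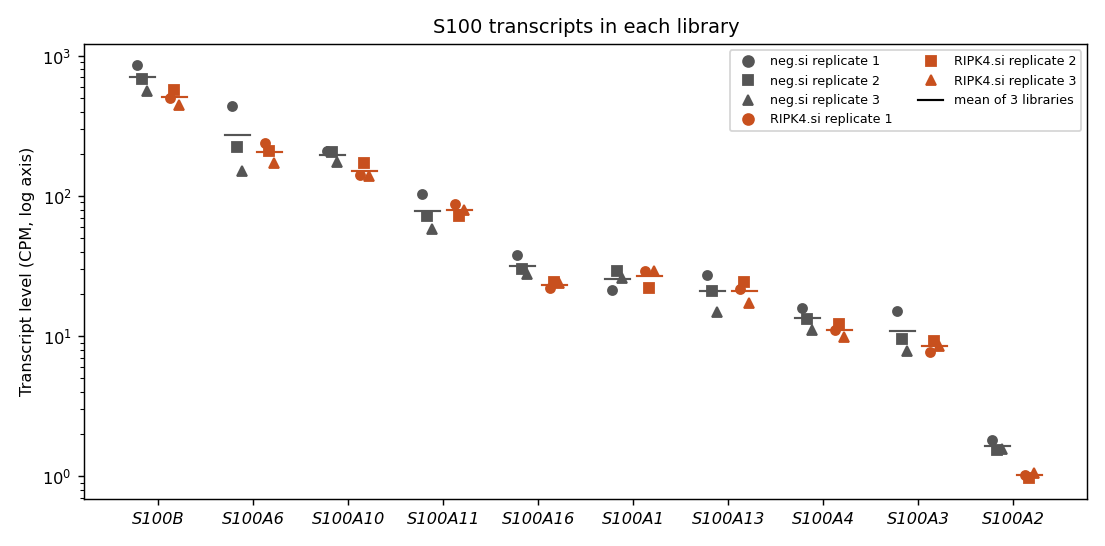
Level of each S100 gene in each of the 6 libraries (CPM, log axis), with symbol shape giving the replicate, colour the group and a line the mean of 3 libraries. For *S100A10*, *S100A16* and *S100A2* the groups do not overlap, and neg.si replicate 1 (grey circle) is the highest library for every gene but *S100A1*.

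The melanoma marker *S100B* was at 863.5, 687.5 and 559.6 CPM in neg.si and at 500.4, 569.3 and 445.0 CPM in RIPK4.si. The groups overlapped, since RIPK4.si replicate 2 was above neg.si replicate 3. The RIPK4.si mean was 71.8% of the neg.si mean, and the log2 fold change was -0.48 with a 95% interval of -0.91 to -0.05 (unadjusted p = 0.0339, adjusted p = 0.391 by edgeR). Over the 14 alternatives the log2 fold change ran from -0.62 to -0.29, with adjusted p-values from 0.126 to 0.935. Among the 9206 genes with a mean of at least 10 CPM, those whose centred log2 CPM lay nearest to that of *S100B* over the 6 libraries were *FABP7*, a fatty acid binding protein of glia and melanoma cells (root mean square difference 0.0558), *CSRP1*, a LIM-domain protein of the actin cytoskeleton (0.0561), and *MAN1C1*, a Golgi mannosidase (0.0571). Since they were chosen over these same 6 libraries, fold changes near that of *S100B* follow from the choice. The log2 fold changes of these genes were -0.48, -0.49 and -0.51, with adjusted p-values by edgeR of 0.367, 0.333 and 0.339. With neg.si replicate 1 left out they were -0.31, -0.34 and -0.32, and that of *S100B* was -0.29. Within the family, *S100A4* (0.104), *S100A16* (0.122) and *S100A10* (0.127) lay nearest, and *S100A1* farthest (0.449).

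*S100A16*, a widely expressed member, was at 37.7, 30.2 and 27.7 CPM in neg.si and at 21.9, 24.2 and 23.9 CPM in RIPK4.si. Every RIPK4.si library was below every neg.si library, and the mean was 73.2% of that in neg.si. Its log2 fold change was -0.45 (SE 0.168, 95% interval -0.83 to -0.07, adjusted p = 0.346 by edgeR). The adjusted p was 0.0683 with the GC trend removed and up to 0.838, without RIPK4.si replicate 3, among the other alternatives.

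*S100A10*, the p11 subunit of the annexin A2 complex that gathers plasminogen at the cell surface, was at 209.5, 204.7 and 174.1 CPM in neg.si and at 140.4, 172.1 and 139.7 CPM in RIPK4.si. The groups came close, at 174.1 and 172.1 CPM, but did not overlap. The mean was 76.9% of the neg.si mean, with a log2 fold change of -0.38 (SE 0.156, 95% interval -0.73 to -0.03, adjusted p = 0.407 by edgeR). Over the 14 alternatives the log2 fold change ran from -0.48 to -0.31, with adjusted p-values by edgeR from 0.210 to 0.940 at the extremes. With the GC trend of each library removed, the groups overlapped.

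The transcript of its partner *ANXA2* was at 2310, 2023 and 1498 CPM in neg.si and at 1752, 2392 and 1616 CPM in RIPK4.si, with a log2 fold change of -0.02 (SE 0.218, adjusted p = 0.993 by edgeR; 0.00 with the GC trend removed). The log2 ratio of *S100A10* to *ANXA2* within a library was -3.46, -3.30 and -3.11 in neg.si and -3.64, -3.80 and -3.53 in RIPK4.si. This ratio was lower by 0.37 on average in RIPK4.si, without overlap, close to the log2 fold change of *S100A10* alone (-0.38). The ratio was not tested, and no share over other gene pairs was computed. In the other 3 pairs compared the groups overlapped, with a mean difference in the log2 ratio of -0.33 for *S100A11* to *ANXA1*, -0.20 for *S100A6* to *CACYBP* and -0.26 for *S100A13* to *FGF1*.

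*S100A2* had few counts, 56, 46 and 50 in neg.si and 30, 28 and 33 in RIPK4.si. In CPM these were 1.81, 1.53 and 1.57 against 1.02, 0.97 and 1.06, without overlap. The log2 fold change of -0.68 was the lowest in the family (SE 0.261, 95% interval -1.27 to -0.10, adjusted p = 0.353 by edgeR), and it stayed between -0.72 and -0.59 over the 14 alternatives, with adjusted p-values from 0.190 to 0.836.

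*S100A6*, also called calcyclin, had the largest SD relative to its mean among the members in the control libraries. It was at 439.0, 222.3 and 151.5 CPM in neg.si and at 237.4, 207.9 and 171.2 CPM in RIPK4.si. The RIPK4.si values all lay between the lowest and the highest neg.si value. The log2 fold change was -0.40 (SE 0.337, 95% interval -1.16 to 0.36, adjusted p = 0.800 by edgeR), and without neg.si replicate 1 it was 0.15.

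*S100A4*, a member linked to cell motility, was at 15.9, 13.2 and 11.1 CPM in neg.si and at 11.01, 12.18 and 9.87 CPM in RIPK4.si. *S100A3*, a cysteine-rich member known from hair cuticle, was at 15.1, 9.52 and 7.87 CPM and at 7.74, 9.21 and 8.46 CPM. The groups of both genes overlapped, and the highest value of both was in neg.si replicate 1. Their log2 fold changes were -0.28 (95% interval -0.71 to 0.15) and -0.35 (-0.92 to 0.21), with adjusted p-values by edgeR of 0.716 and 0.732. Without neg.si replicate 1 they were -0.12 and -0.02, and without neg.si replicate 3 -0.40 and -0.54.

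*S100A1*, *S100A11* and *S100A13* had similar means in both groups. *S100A1* was at 21.5, 29.2 and 26.2 CPM in neg.si and at 29.0, 22.1 and 29.2 CPM in RIPK4.si, and it was the one member with its lowest value in neg.si replicate 1. *S100A11* was at 103.8, 71.8 and 58.2 CPM in neg.si and at 88.2, 71.8 and 78.8 CPM in RIPK4.si. *S100A13* was at 27.38, 20.98 and 14.95 CPM in neg.si and at 21.6, 24.3 and 17.2 CPM in RIPK4.si. The RIPK4.si libraries of *S100A11* and *S100A13* lay within the neg.si range. The 95% intervals of the log2 fold changes were -0.35 to 0.48 for *S100A1*, -0.45 to 0.51 for *S100A11* and -0.54 to 0.53 for *S100A13*, so each interval held values on both sides of 0.

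**Figure D3:**
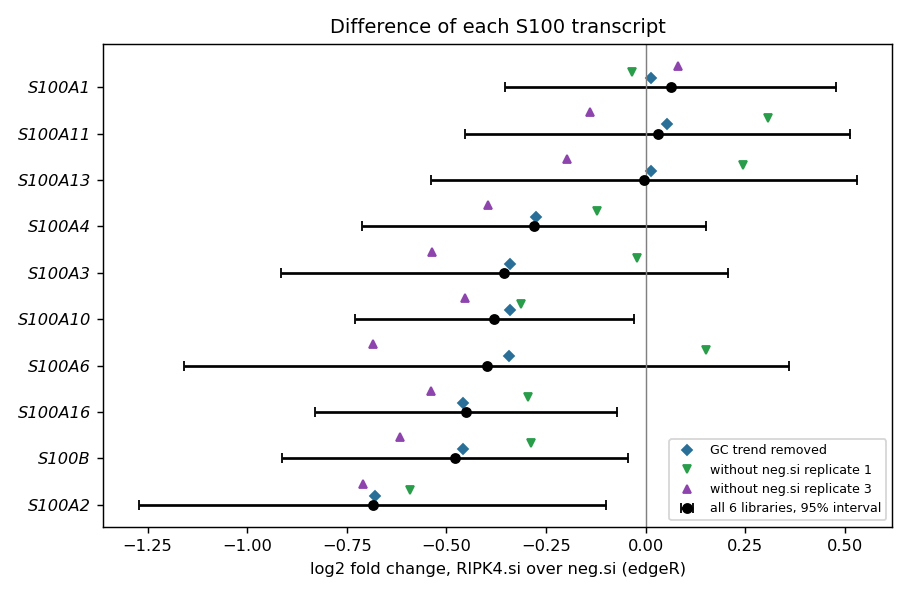
Log2 fold change, RIPK4.si over neg.si, of the 10 S100 genes with all 6 libraries (black point, edgeR, bar for the 95% interval) and with the GC trend removed or with replicate 1 or 3 of neg.si left out (coloured symbols). For *S100A6* the value is -0.40 with all libraries, 0.15 without its highest control library, neg.si replicate 1, and -0.68 without the third. The values shown for *S100A2* stay between -0.71 and -0.59.

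A further 4 S100 genes of the 11 listed were in the table, and the other 7 were not analysed here. *S100A5*, a member known from olfactory neurons, had 7, 14 and 18 counts in neg.si and 22, 12 and 14 in RIPK4.si, with a log2 fold change of 0.35 (SE 0.461, adjusted p = 0.895 by edgeR). That value was 0.06 with RIPK4.si replicate 1 left out, 0.07 with neg.si replicate 1 left out and 0.64 with neg.si replicate 3 left out. *S100A8* and *S100A9*, the subunits of calprotectin in myeloid cells, had at most 4 and 14 counts in a library, and *S100A14* at most 4. These 3 did not pass the filter on low counts, so no difference between the groups is given for them.

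Proteins that S100 members bind or act through were taken as a list of 42 genes, of which 39 were in the table and 36 were tested. None was called by edgeR or DESeq2, where 0.767% and 2.78% of all genes were. Of the 36, 19 were fitted below 0, against 53.4% of all genes, and the median log2 fold change was -0.02, the same as for all genes. At an unadjusted p under 0.05 edgeR listed 1 of the 36, against 10.8% of all genes tested in either direction. This was *ANXA1*, a phospholipid-binding partner of S100A11. *ANXA1* was at 388.4, 374.9 and 328.4 CPM in neg.si and at 441.6, 560.0 and 439.7 CPM in RIPK4.si. Every RIPK4.si library was higher, with a log2 fold change of 0.40 (SE 0.162, adjusted p = 0.393 by edgeR). *FGF1*, the growth factor exported with S100A13, was at 32.4, 33.1 and 31.3 CPM in neg.si and at 39.7, 40.4 and 37.5 CPM in RIPK4.si, also without overlap (log2 fold change 0.28, adjusted p = 0.534 by edgeR). These were 2 of 36 genes higher without overlap, where 8.23% of all genes tested were. Lower without overlap was 1 of 36, against 9.40% of all genes tested. This gene, named after its values were seen, was *MYH10*, a non-muscle myosin heavy chain, at 536.9, 553.4 and 535.5 CPM in neg.si and at 480.9, 368.1 and 457.5 CPM in RIPK4.si (log2 fold change -0.32, adjusted p = 0.528 by edgeR). The scaffold *AHNAK*, bound by the S100A10 and annexin A2 complex, had a log2 fold change of -0.10, the S100A6 partner *CACYBP* -0.06 and *AGER*, which encodes RAGE, -0.11, and the groups of these 3 overlapped. *AGER* had a low level, at 1.70 to 3.71 CPM over the 6 libraries.

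Calcium sensors with EF-hands outside the S100 family were a second list, with 28 genes tested of 30 in the table. None of these 28 was called by edgeR, where 0.767% of all genes tested were, and the median log2 fold change was -0.10. At an unadjusted p under 0.05 edgeR listed 4 of the 28, against the same 10.8% of all genes. *CALB2*, calretinin, was at 0.614, 0.433 and 0.346 CPM in neg.si and at 1.40, 1.70 and 1.51 CPM in RIPK4.si, from 11 to 49 counts a library. The groups were far apart, with a log2 fold change of 1.72 (SE 0.329, adjusted p = 0.0562 by edgeR). *CALB2* was called by DESeq2 (adjusted p = 0.00725), which called 2.78% of all genes. The other 3 were *NCS1*, a neuronal calcium sensor (0.59), the reticulocalbin *RCN1* (-0.36) and *CIB2* (-0.48), in log2 fold change, with adjusted p-values by edgeR from 0.378 to 0.458. Without neg.si replicate 1 that of *CIB2* was -0.29, and without RIPK4.si replicate 2 that of *NCS1* was 0.39.

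Since *S100B* is read as a marker of the melanocyte lineage, the 7 other lineage genes are given beside it. *PMEL*, which builds melanosome fibrils, was called, and it fell from 312.3, 278.5 and 249.3 CPM in neg.si to 117.5, 104.3 and 119.1 CPM in RIPK4.si (log2 fold change -1.30, SE 0.152, adjusted p = 0.0111 by edgeR). With neg.si replicate 2 left out its adjusted p was 0.129, and with replicate 1, 2 or 3 of RIPK4.si left out it was 0.0992, 0.0738 or 0.122, with log2 fold changes of -1.29, -1.32, -1.23 and -1.33. The melanin enzyme genes *DCT* and *TYR* were lower in every RIPK4.si library, with log2 fold changes of -0.73 and -0.57, but were not called by edgeR (adjusted p = 0.0854 and 0.148), whereas DESeq2 called both (adjusted p = 0.00361 and 0.0417). With the GC trend removed edgeR called *DCT* (adjusted p = 0.0207). *TYRP1* had a log2 fold change of 0.36, *SOX10* of -0.15, *MITF* of 0.04 and *MLANA* of 0.06, with overlapping groups. With neg.si replicate 1 left out that of *MITF* was -0.05 and that of *SOX10* -0.01. That of *SOX10* was -0.29 with neg.si replicate 3 left out, and that of *TYRP1* was 0.24 with RIPK4.si replicate 2 left out.

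**Figure D4:**
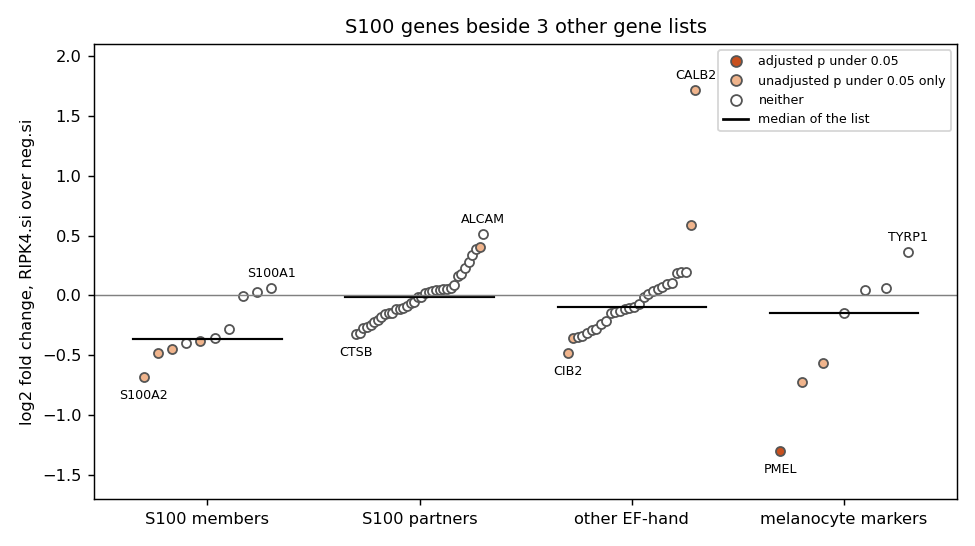
Log2 fold change, RIPK4.si over neg.si, of each tested gene in 4 lists (points) with the list's median (line), coloured by edgeR p-value. The median is -0.37 for the S100 members (-0.08 with neg.si replicate 1 left out), -0.02 for their partners, -0.10 for other EF-hand genes and -0.15 for melanocyte markers (-0.05 with that library left out), and *PMEL* is the one gene called.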

How the data were processed

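RNA was measured in 3 neg.si and 3 RIPK4.si libraries. The authors made poly(A) libraries, read them as pairs on the BGISEQ-500, trimmed adapters with Cutadapt, aligned with TopHat to the GRCh38.p13 genome and counted pairs per gene with HTSeq, ignoring strand. The deposited table gives each library's raw count of read pairs as whole numbers, and genes in it total at least 6 counts. Size-factor-scaled values, fold changes and p-values that the authors placed in the same table were not used.

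Counts were fitted with edgeR 4.0.16 (TMM, its filter on low counts, quasi-likelihood test of condition) in R 4.3.3, with p-values adjusted over all 16297 genes tested. The standard error was taken from the log2 fold change and its F statistic. The fit was tested on simulated data. Lengths, overlaps and GC content came from GENCODE release 44, in which 24416 of 24526 identifiers were found. Python 3.11.15 was used for summaries. The p-values measure the spread between these cultures, and replicates of a group differed by more than counting noise (chi-square per degree of freedom 12.9 to 91.4).

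The alternatives were DESeq2 1.42.0, edgeR scaled by DESeq2 size factors or by upper quartiles, a filter of 10 counts in all libraries or none, the replicate number as a block, removal of each library's GC trend (lowess, span 0.3), both together, and each library left out. Length from unshared exon bases and the per-library GC-corrected levels were added after seeing the data. The S100 members and all lists were chosen with earlier results of these data known. The genes named were all members, the other S100 genes found, *RIPK4*, 6 direct partners, every gene of the partner and EF-hand lists with an unadjusted p under 0.05, the melanocyte markers, the genes between *S100A10* and *S100A16*, and the 3 genes nearest to *S100B*. A gene of the EF-hand list is not reported here and is left out of its counts. A few markers of other cells were named after their values were seen.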

Additional observations from a re-analysis of the deposited data

How the results depend on the processing

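No S100 member was called in the 6-library fit or under any of the 14 alternatives, and the fitted direction of *S100B*, *S100A2*, *S100A3*, *S100A4*, *S100A10* and *S100A16* was the same in all of them. The count of called genes among all genes moved more: 125 with all libraries, 430 with DESeq2, 533 with the GC trend removed, and 0 to 295 with a library left out (0 without neg.si replicate 2, RIPK4.si replicate 1 or RIPK4.si replicate 3, where edgeR listed 1153, 1426 and 1086 genes at an unadjusted p under 0.05, 4 without RIPK4.si replicate 2, and 70 or 295 when replicate 1 or 3 of neg.si was left out). Same-numbered libraries of the groups had correlations of their deviations of -0.242, 0.251 and 0.346, so the numbers were not taken to pair the cultures. However, *KRT5* and *KRT14* had counts in the libraries numbered 1 of both groups and in no other. In those libraries *LYZ* had 0 and 1 counts, against 9 to 24 in the others, and *S100A9* had 0 and 2, against 6 to 14. The replicate block gave 131 called genes, or 434 with the GC trend removed as well. Of the other EF-hand genes, 1 (*CALB2*) was called with DESeq2, with at least 10 counts in every library, with the GC trend removed and with the GC trend removed under the replicate block. The log2 fold change of *RIPK4* was between -2.06 and -1.74 with a library left out, no longer called without neg.si replicate 2 (-1.84) or RIPK4.si replicates 1 (-1.91), 2 (-1.79) and 3 (-1.98), where fewer samples were fitted.

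The log2 fold changes that changed sign all had overlapping groups, and the cause was not tested. That of *S100A13* was 0.007 with DESeq2, 0.003 with its size factors, 0.0033 with upper-quartile normalization, 0.0053 with no filter, 0.0233 with the replicate block, 0.0129 with the GC trend removed and 0.0177 with both, and it ranged from -0.198 to 0.244 with a library left out. With a library left out, *S100A1* ranged from -0.0336 to 0.193, *S100A6* from -0.685 to 0.152 and *S100A11* from -0.140 to 0.308. *ANXA2* was at 0.0013 with the GC trend removed and 0.0165 with the replicate block as well, and between -0.198 and 0.142 with a library left out. Over the same fits the values ran through 0 for *AHNAK* (-0.297 to 0.129), *CACYBP* (-0.147 to 0.0279), *AGER* (-0.284 to 0.175), *MITF* (-0.0543 to 0.150) and *MLANA* (-0.0189 to 0.156). Depth limits *S100A2*, *S100A5* and *CALB2*, with under 60 counts a library.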

Other observations

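Between *S100A10* and *S100A16* the table held 10 further genes of chromosome 1 (151982915 to 153613145), the region of genes for the outer skin barrier, and 4 of them were tested. edgeR called 0, where 0.767% of all genes tested were called. It listed 2 at an unadjusted p under 0.05, both lower in RIPK4.si, against 6.0% of all genes tested. *FLG*, which encodes filaggrin, was at 5.91, 6.79 and 6.14 CPM in neg.si and at 3.89, 3.01 and 3.92 CPM in RIPK4.si. Every RIPK4.si library was lower (log2 fold change -0.80, SE 0.200, adjusted p = 0.131 by edgeR and 0.0458 by DESeq2). *FLG-AS1*, its antisense transcript, was at 3.20, 5.06 and 6.58 CPM in neg.si and at 3.34, 1.66 and 2.89 CPM in RIPK4.si, with overlapping groups (log2 fold change -0.91, adjusted p = 0.337 by edgeR). Reads of *FLG* and *FLG-AS1* cannot be told apart where they overlap, since strand was ignored. *HRNR*, the filaggrin-related hornerin, was at 0.807, 0.866 and 0.661 CPM in neg.si and at 1.02, 1.45 and 1.13 CPM in RIPK4.si (log2 fold change 0.62, adjusted p = 0.526 by edgeR), higher in every RIPK4.si library. The fourth gene tested, *BX470102.1*, had a log2 fold change of 0.05. The other 6 (*TCHH*, *AL589986.2*, *FLG2*, *LINC01527*, *SPRR2D* and *BX470102.2*) had at most 12 counts in a library and were not tested.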
